A study of Canis lupus familiaris with 13 samples.

Results

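The comparison described here set heart tissue of Boxers with dilated cardiomyopathy against heart tissue of control mongrels on an Affymetrix canine expression array. Its members were chosen by the sample labels alone, as the 4 arrays labelled as Boxers with cardiomyopathy and the 3 labelled as control mongrels, 7 of the 13 arrays in the study. The other 6 arrays came from 3 Dobermans with dilated cardiomyopathy and 3 mongrels whose hearts had been paced, and they are used below only to place the Boxer values. Controls are named P1, P4 and P9 and Boxers 1 to 4, as in the labels. All values in the order P1, P4, P9 and Boxer 1, 2, 3, 4 are the deposited MAS5 signals, a linear brightness scaled to a common level on each array. No healthy Boxer was measured, so breed and disease cannot be told apart in this comparison. The labels gave no age, sex, treatment or stage of disease for these dogs, and no region of the heart, and they did not state whether each array came from a separate animal. The p-values therefore measure the spread between these samples, which may be partly technical.

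A heart with dilated cardiomyopathy has enlarged chambers that contract weakly. In Boxers, heart muscle disease is known above all for ventricular arrhythmia and for replacement of muscle by fat and fibrous tissue, and it has been compared with human arrhythmogenic cardiomyopathy, a disease of the desmosomes that join heart muscle cells. Contraction of the heart depends on calcium released from the sarcoplasmic reticulum through the ryanodine receptor RYR2, on the actin and myosin filaments of the sarcomere, and on a steady supply of ATP, most of it from fatty acid oxidation. Fibroblasts, macrophages and the complement system take part in the remodelling of injured hearts.

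The arrays were closely alike. The median signal was 142.5 to 146 in the controls and 132 to 146 in the Boxers, and arrays correlated with the rest of their group at 0.953 to 0.957 (controls) and 0.961 to 0.968 (Boxers) on average. The tissue was heart muscle by its markers: 9 of 10 cardiac muscle genes fixed as markers were tested, and all 9 had mean signals within the top 5% of the array, with single values of 6202 to 39028. The GAPDH 3'/5' ratio, a sign of RNA degradation when high, was 0.968 to 1.09 on all 7 arrays. The actin 3'/5' ratio was -3.17, -2.67 and -2.34 (log2) in the controls and -1.71, -1.97, -1.94 and -1.56 in the Boxers. Every Boxer lay above every control in that ratio, and the exact two-sided permutation p was 0.0571, the smallest that 3 against 4 arrays allow, or 0.229 after adjustment over 4 array measures. Its part in the results below was not tested beyond a fit with the ratio as a covariate. Control P9 stood between the groups: its mean correlation was 0.953 with the other controls and 0.954 with the Boxers.

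Of 14302 tested probe sets, 30 passed at an adjusted p under 0.05 (0.210%), 11 of them higher (0.0769%) and 19 lower (0.133%) in the Boxers. The Boxer and control signals did not overlap in any of the 30, against 15.8% of all tested probe sets. A p small enough to pass on so few arrays nearly requires separate groups, so this adds nothing to the calls. A gene symbol was given for 19 of the 30, of which 7 were higher and 12 lower, and 2 more carried a locus number and 9 no symbol. The median change over all tested probe sets was -0.03 on the log2 scale, and 153 probe sets differed by more than 1 log2 unit upwards and 113 downwards. An unadjusted p under 0.05 was reached by 2415 probe sets (16.9%), so many differences of moderate size lay short of the adjusted threshold. The count rested on single arrays: it was 221 without control P9, 12 without control P4 or Boxer 1, 13 without Boxer 3 and 14 without control P1. With the actin ratio as a covariate 0 passed and 1021 had an unadjusted p under 0.05, and all 30 kept their sign. Because every Boxer lay above every control in that ratio, the fit could hardly separate the ratio from the group. Its counts, and the changes and signs it gave for single genes, therefore do not decide the part of the ratio. Of 169 probe sets of named genes that did not pass, 34 turned their sign with that covariate. Those described below include ACTC1, ANKRD1, DSP, JUP, MYH7 and MYL1, the brightest probe set of RYR2, and the genes where such a value is given. Others kept their sign and moved in size either way, and below the value is printed for some genes only. CCL2 went from 1.26 to 0.23, RGS2 from 1.20 to 0.29 and ADCY6 from -1.09 to -0.35. IGFBP2 went from 2.62 to 4.12 and GJA1 from -0.84 to -1.25. Without control P9, 25 of the 169 passed. They included ADCY6, ATP2B1, CILP, IDH3B, MGST1, MYH7, MYOM2, NEBL, OGDH, PKM, PPP3CA, PYGM, UCHL1, UQCRC1 and the brightest ACTA1 probe set. Brightest means here the highest mean log2 value among the tested probe sets of a gene.

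**Figure D1:**
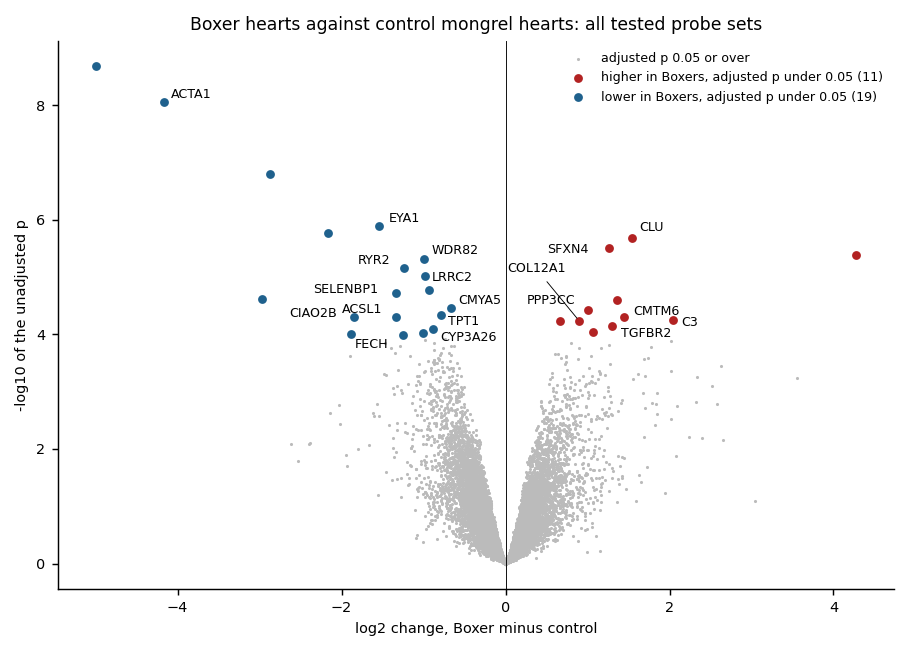
Log2 change of each tested probe set (x axis, Boxer minus control, on log2 of signal plus 16) against -log10 of its unadjusted limma p (y axis). Coloured points passed an adjusted p under 0.05, 11 higher and 19 lower, and those with a gene symbol are labelled. The largest named fall is an ACTA1 probe set at -4.16.

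Among the genes of the contractile apparatus, a single probe set of ACTA1, the skeletal muscle alpha actin that the heart also makes, changed most. Its signals were 3409.9, 2679.7 and 2558 in the controls and 167, 157, 183 and 88.6 in the Boxers, with every Boxer below every control. The Boxer mean was 17.9-fold lower (log2 change -4.16 ± 0.23 (SE), adjusted p = 6.28e-05; 95% interval -4.67 to -3.66). Of the 4 tested ACTA1 probe sets, 2 had negative and 2 positive changes, from -4.16 to 0.63, and only this one passed. The brightest read 645, 656 and 1025 in the controls and 1345, 1034, 1256 and 1125 in the Boxers (log2 change 0.63 ± 0.18 (SE), adjusted p = 0.139). The probe sets of this gene thus disagreed in direction, and the fall that passed is that of 1 probe set and not of the gene as a whole. Paced mongrels read 1382, 910.1 and 1334 with the probe set that passed, and 5389.8, 5372 and 6353 with the brightest one. ACTC1, the main actin of heart muscle, read 22642, 23416 and 17049.7 in the controls and 18244, 17989.7, 19974 and 20219 in the Boxers (log2 change -0.13 ± 0.13 (SE), adjusted p = 0.641), and its groups overlapped.

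CMYA5, which encodes myospryn, a large protein of the muscle Z-disc region, fell. Its signals were 8340, 8030 and 9029 in the controls and 5096, 5305, 5431 and 5393 in the Boxers (log2 change -0.67 ± 0.09 (SE), adjusted p = 0.031), and its 4 tested probe sets all had negative changes, 1 of which passed. LRRC2, a leucine-rich repeat protein, read 2052, 2425 and 2131 in the controls and 1126, 1133, 989.6 and 1177 in the Boxers, a fall to close to 0.51 of the control level (log2 change -0.98 ± 0.12 (SE), adjusted p = 0.0123). In both genes the 4 Boxers lay within a narrow band well under the lowest control. NEBL, which encodes nebulette, a thin filament protein anchored at the Z-disc, came close to the threshold. On its brighter probe set the signals were 2902, 3162 and 2294 in the controls and 1661, 1465, 1728 and 1111 in the Boxers (adjusted p = 0.0653), and the changes of both its probe sets were negative, at -0.90 and -0.98.

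The sarcomere lists as groups held no member that passed with its brightest tested probe set, that of highest mean log2 value. Over the 5281 tested genes 0.0947% passed as higher and 0.114% as lower. ACTA1 stood in the thin filament list by a probe set that did not pass, so the fall described above was not counted. Of 16 tested thin filament genes, 12 had negative changes, with a median of -0.14 on the log2 scale. Of 9 thick filament and titin genes 6 did, with a median of -0.18. Over all genes 2766 of 5281 had negative changes, and the median was -0.02. The thin and thick filament medians depended on the scaling, at -0.02 and 0.04 after quantile normalization. TMOD1, a cap of the actin filament's pointed end, read 6231, 6211 and 5067 in the controls and 3897, 4225, 4459 and 4865 in the Boxers (log2 change -0.42 ± 0.12 (SE), adjusted p = 0.141). The brightest sarcomere genes separated P1 and P4 from the other arrays more than they separated Boxers from controls. MYH7, the slow cardiac myosin heavy chain, read 38486, 39028 and 26108 in the controls and 25696, 27274, 28839.8 and 29543 in the Boxers, and control P9 fell inside the Boxer range (log2 change -0.29 ± 0.15 (SE), adjusted p = 0.345). All 6 MYH7 probe sets had negative changes, from -1.14 to -0.29, and 0 passed in limma. MYOM2, a protein of the sarcomere's M-band, read 15109, 11658 and 8318 and 5474, 8447, 5752 and 5750.5 with an adjusted p of 0.1 (log2 change -0.86, or 0.053 with the actin ratio as a covariate). TTN, titin, had 17 tested probe sets with changes from -1.16 to 0.71, none of which passed. Z-disc genes had a median of -0.05, with SYNPO2 and PDLIM3 among the higher ones (0.75 ± 0.16, adjusted p = 0.0748 and 1.01 ± 0.25, adjusted p = 0.0985) and PALLD, palladin, among the lower ones (-0.58 ± 0.16, adjusted p = 0.123). With the actin ratio as a covariate the change of PDLIM3 was -0.16, of the opposite sign.

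**Figure D2:**
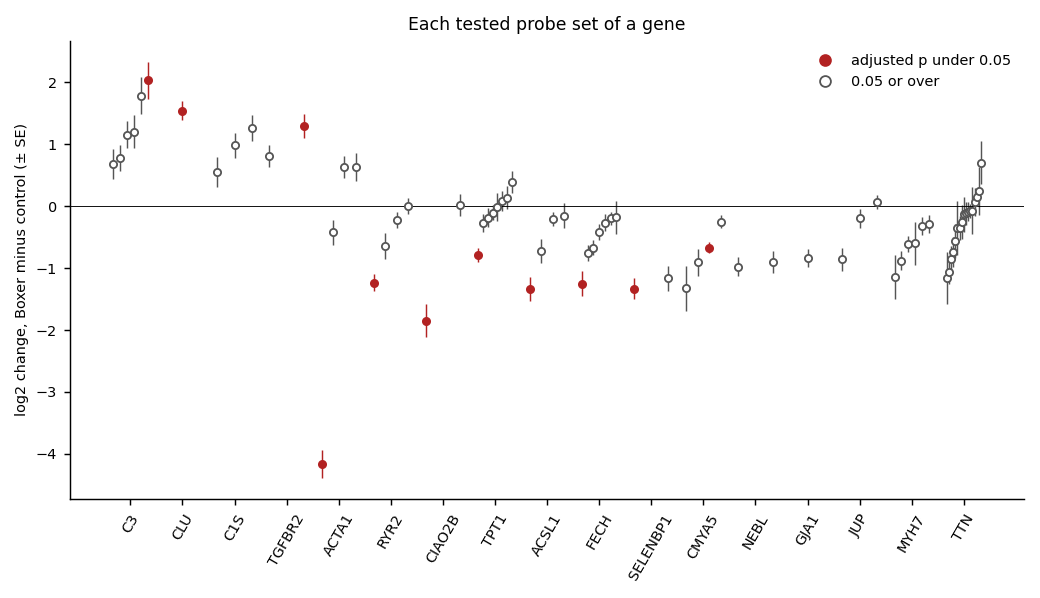
Log2 change, Boxer minus control, of each tested probe set of 17 genes, with its SE as a bar. Filled points passed an adjusted p under 0.05. All 6 C3 probe sets are positive and all 7 FECH probe sets negative, whereas the probe sets of ACTA1 run from -4.16 to 0.63.

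Among calcium handling genes, 1 probe set of the ryanodine receptor passed. RYR2, the channel that releases calcium from the sarcoplasmic reticulum, read 1942, 2134 and 1652 in the controls and 866, 902, 699 and 743 in the Boxers with 1 of its 4 probe sets, and every Boxer lay below every control. This was a 2.35-fold fall (log2 change -1.23 ± 0.14 (SE), adjusted p = 0.00982; 95% interval -1.55 to -0.92). The other 3 probe sets had changes of -0.64, -0.22 and 0.00, and none of them passed. The brightest read 8946, 8123 and 7556 in the controls and 6305, 8148, 7646 and 6202 in the Boxers, with overlapping groups (log2 change -0.22 ± 0.13 (SE), adjusted p = 0.398). FKBP1B, calstabin 2, which binds the ryanodine receptor and stabilises its closed state, read 2138, 2989 and 120.5 in the controls and 179.9, 173, 128 and 126 in the Boxers. All 4 Boxers were low, and so was control P9, which overlapped with them, so the difference did not pass (log2 change -2.53 ± 0.87 (SE), adjusted p = 0.196). Without P9 the log2 change was -3.94 with an adjusted p of 0.000565, and with the actin ratio as a covariate it was 0.54, of the opposite sign. FKBP1B read 996, 383 and 1812 in the paced hearts and 2142, 1575 and 1069 in the Dobermans, all above every Boxer, and the Boxers were lower than the Dobermans (log2 difference -3.23 ± 0.81 (SE), adjusted p = 0.0118) but not by the test than the paced hearts (log2 difference -2.45 ± 0.81 (SE), adjusted p = 0.0515), a difference that passed on the 10 arrays without the Dobermans (adjusted p = 0.041).

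Of 21 tested calcium handling genes, 0 passed with their brightest probe set in limma, 3 were higher and 5 lower at an unadjusted p under 0.05, against 8.58% and 10.1% of all genes, and the median change was -0.19. CACNB2, a beta subunit of the L-type calcium channel, read 516, 615 and 549 in the controls and 368, 334, 306 and 351 in the Boxers (log2 change -0.69 ± 0.14 (SE), adjusted p = 0.0653). ATP2B1, a calcium pump of the cell membrane, read 853, 816 and 1018 and 1468, 1267, 1339 and 1312 (log2 change 0.58 ± 0.12 (SE), adjusted p = 0.0718). In both genes the groups did not overlap, with the channel subunit lower and the pump higher in the Boxers. HRC, a calcium-binding protein of the sarcoplasmic reticulum, had a change of -0.48 ± 0.15, adjusted p = 0.156, and SLC8A1, the sodium-calcium exchanger, -0.63 ± 0.19, adjusted p = 0.163. ATP2A2, the SERCA2 pump that returns calcium to the store, read 25078, 27169.9 and 18198 in the controls and 18236, 18447, 18391 and 21720.5 in the Boxers (log2 change -0.27 ± 0.14 (SE), adjusted p = 0.363). Control P9 lay below every Boxer in this gene, while P1 and P4 lay above them.

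PPP3CC, the gamma catalytic subunit of the calcium-activated phosphatase calcineurin, rose. Its signals were 1094, 963 and 1230.4 in the controls and 2202, 2472, 2357 and 1832 in the Boxers, a 2-fold difference (log2 change 1.00 ± 0.14 (SE), adjusted p = 0.031; 95% interval 0.69 to 1.32). The alpha subunit gene PPP3CA read 1193, 1254 and 1400.4 and 1836, 1935, 1764 and 1977, also without overlap, and did not pass (log2 change 0.55 ± 0.11 (SE), adjusted p = 0.0678). The beta subunit gene PPP3CB overlapped, at 1263, 1107 and 1339.7 and 1348, 1388, 1387 and 1013 (log2 change 0.05 ± 0.14 (SE), adjusted p = 0.899). Among 26 tested calcineurin and hypertrophy genes PPP3CC alone passed (0.208% of all genes passed in either direction), 5 were higher and 4 lower at an unadjusted p under 0.05 (8.58% and 10.1% of all genes), and the median was -0.05, or 0.01 after median centring. MAPK9, a stress-activated kinase, was among the lower ones (-0.93 ± 0.20, adjusted p = 0.0748).

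Genes of the intercalated disc, where heart muscle cells join, came to counts close to those over all genes: 0 of 20 tested passed in limma, 3 were higher and 2 lower at an unadjusted p under 0.05, or 15% and 10%, against 8.58% and 10.1% of all genes, and the median was -0.03 (0.04 after median centring). GJA1, connexin 43, which forms the gap junctions between muscle cells, read 5116, 6257 and 6441 in the controls and 3693, 2557, 3703 and 3403 in the Boxers, a difference without overlap that missed the threshold (log2 change -0.84 ± 0.15 (SE), adjusted p = 0.0603). The Boxers were well above the paced hearts (1258, 1306 and 882; log2 difference 1.53 ± 0.29 (SE), adjusted p = 0.00414) and the Dobermans (1272, 439.9 and 946; log2 difference 2.01 ± 0.29 (SE), adjusted p = 0.0021). CDH2, N-cadherin of the adherens junction, was lower in every Boxer than in any control, at 281, 329 and 216 and 172, 201, 194 and 182 (log2 change -0.50 ± 0.18 (SE), adjusted p = 0.209). DSP, desmoplakin, read 15625, 16107 and 13337 in the controls and 14646, 14340.5, 14174 and 13551 in the Boxers (log2 change -0.08 ± 0.10 (SE), adjusted p = 0.725; 95% interval -0.30 to 0.14). JUP, plakoglobin, read 1762, 1965 and 1795 and 2139, 1984, 1717 and 1914 with its brightest probe set (log2 change 0.07 ± 0.11 (SE), adjusted p = 0.791; 95% interval -0.18 to 0.33), while another of its 3 tested probe sets had a change of -0.86 that did not pass. The desmosomal genes PKP2 and DSG2 were not analysed here, because no probe set carried their symbols.

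Ion channels and receptors varied gene by gene. Over 15 channel and pump genes the median was -0.07, and over 19 adrenergic, angiotensin and endothelin genes -0.11, with 0 passing in either list in limma (5 in each reached an unadjusted p under 0.05, as did 18.6% of all genes). FXYD6, a regulator of the sodium pump, read 2555, 2681 and 2711 in the controls and 3881, 3415, 3464 and 3535 in the Boxers (log2 change 0.43 ± 0.10 (SE), adjusted p = 0.0812). ADCY6, a cardiac adenylyl cyclase that makes cyclic AMP downstream of beta receptors, read 1842, 1995 and 1180.5 and 746, 1055, 683 and 615 (log2 change -1.09 ± 0.22 (SE), adjusted p = 0.0707). RGS2, which shortens G protein signals, read 173, 163 and 241 and 528, 419, 272 and 710.4 (log2 change 1.20 ± 0.29 (SE), adjusted p = 0.0957). FXYD6 and RGS2 were higher and ADCY6 lower in every Boxer than in any control, and none of these differences passed.

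In energy metabolism, ACSL1, the long-chain acyl-CoA synthetase that activates fatty acids for oxidation, fell on 1 of its 4 tested probe sets. That probe set read 2292, 3447 and 2427 in the controls and 1383, 927, 879 and 1086 in the Boxers, a 2.52-fold difference (log2 change -1.33 ± 0.19 (SE), adjusted p = 0.0338). The changes of all 4 were negative, from -1.33 to -0.15. The paced hearts lay at or below the low end of the Boxers (609.7, 754 and 887). Of 36 tested genes of fatty acid uptake and oxidation, 28 had negative changes (2766 of 5281 over all genes). At an unadjusted p under 0.05, 11 were lower and 0 higher (10.1% and 8.58% of all genes), and 11 lay lower without overlap (9.85% of all genes). None passed the adjusted threshold with its brightest probe set, and the median change was -0.19. CD36, the fatty acid transporter of the cell membrane, read 4225, 4295 and 3776 in the controls and 3236, 2303, 2661 and 2773 in the Boxers (log2 change -0.58 ± 0.13 (SE), adjusted p = 0.0748). ACADSB, a dehydrogenase of branched short chains, read 1283, 1329.7 and 1181 and 780.4, 829, 658 and 922 (log2 change -0.66 ± 0.14 (SE), adjusted p = 0.0707), and CPT2, which takes part in the entry of fatty acids into mitochondria, had a change of -0.50 ± 0.15, adjusted p = 0.149. The controls were widely spread in LPL, lipoprotein lipase (5190.5, 2102 and 7338, against 1909, 1950.1, 2519 and 1612 in the Boxers).

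The citric acid cycle and its pyruvate entry were counted in the same way: of 26 tested genes, 23 had negative changes (2766 of 5281 over all genes), 9 were lower and 0 higher at an unadjusted p under 0.05 (10.1% and 8.58% of all genes), and the median was -0.22. OGDH, a subunit of the 2-oxoglutarate dehydrogenase complex, read 1702, 2196 and 1185 in the controls and 753, 807, 488 and 870.5 in the Boxers (log2 change -1.19 ± 0.24 (SE), adjusted p = 0.0701). IDH3B, a subunit of isocitrate dehydrogenase, read 14119, 13916 and 10782 and 8421, 9708, 8530.5 and 9685 (log2 change -0.50 ± 0.12 (SE), adjusted p = 0.0985). In both genes every Boxer lay below every control. SUCLA2, a succinyl-CoA ligase subunit, had a change of -0.48 ± 0.14, adjusted p = 0.141. PDK4, the kinase that turns off pyruvate dehydrogenase when fatty acids are burned, read 15207, 13634 and 11245 in the controls and 4075, 7051, 2370 and 11056 in the Boxers, with Boxer 4 close to the lowest control and Boxer 3 lowest of all (log2 change -1.34 ± 0.43 (SE), adjusted p = 0.17). Of 54 respiratory chain and ATP synthase genes, 43 had negative changes (2766 of 5281 over all genes). At an unadjusted p under 0.05, 12 were lower and 0 higher (10.1% and 8.58% of all genes), and the median was -0.18. UQCRC1, a core subunit of complex III, read 14978, 16005 and 12061 and 11155, 11040.2, 11278 and 11469 (log2 change -0.34 ± 0.11 (SE), adjusted p = 0.18), and SURF1, an assembly factor of complex IV, -0.57 ± 0.15, adjusted p = 0.123. The sample medians of this list were 0.07, 0.13 and -0.18 in the controls and -0.26, -0.19, -0.14 and -0.14 in the Boxers, relative to the control mean, so that P9 lay within the Boxer range. After quantile normalization the list median was -0.05. In bulk tissue, fewer heart muscle cells and less RNA per muscle cell cannot be told apart.

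Of 30 glycogen and glycolysis genes, 4 were higher and 4 lower at an unadjusted p under 0.05, or 13.3% each way, close to the 8.58% and 10.1% of all genes, with a median of -0.07. PYGM, muscle glycogen phosphorylase, read 5631, 6157 and 4522 in the controls and 3271, 3125, 2751 and 3769.8 in the Boxers (log2 change -0.75 ± 0.14 (SE), adjusted p = 0.0653), and PKM, pyruvate kinase, 2812, 2949 and 1902 and 1532, 1531, 992 and 1224 (log2 change -0.94 ± 0.20 (SE), adjusted p = 0.0723). ENO1 and ALDOC, an enolase and an aldolase, lay on the other side (0.45 ± 0.13, adjusted p = 0.155 and 0.61 ± 0.19, adjusted p = 0.157). All 4 had groups that did not overlap, and 0 passed.

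Of the genes that passed, 4 that act in heme or iron-sulfur chemistry, in mitochondria or in selenium and sulfur metabolism are described together, a grouping made after their values were seen. FECH, ferrochelatase, the last enzyme of heme synthesis, read 711, 783 and 696 in the controls and 313, 286, 405 and 214 in the Boxers (log2 change -1.25 ± 0.20 (SE), adjusted p = 0.0496), and all 7 of its tested probe sets had negative changes, 1 of which passed. CIAO2B, a part of the machinery that inserts iron-sulfur clusters into proteins of the cytosol and nucleus, read 1151, 568 and 782 in the controls and 219.7, 268, 141 and 233 in the Boxers, 3.61-fold lower (log2 change -1.85 ± 0.27 (SE), adjusted p = 0.0338; 95% interval -2.45 to -1.25). Its second probe set had a change of 0.02. SFXN4, sideroflexin 4, a protein of the inner mitochondrial membrane, rose 2.39-fold, from 289, 328 and 274 in the controls to 756, 667, 771 and 733 in the Boxers (log2 change 1.26 ± 0.13 (SE), adjusted p = 0.00626). SELENBP1, a selenium-binding protein that oxidises methanethiol, fell 2.52-fold, from 2094, 2478 and 1549.8 to 797, 921, 732 and 705 (log2 change -1.33 ± 0.17 (SE), adjusted p = 0.021), and its other probe set had a change of -1.16 (adjusted p = 0.0603). For SFXN4 and SELENBP1 the 4 Boxers were closer to each other than to any control.

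**Figure D3:**
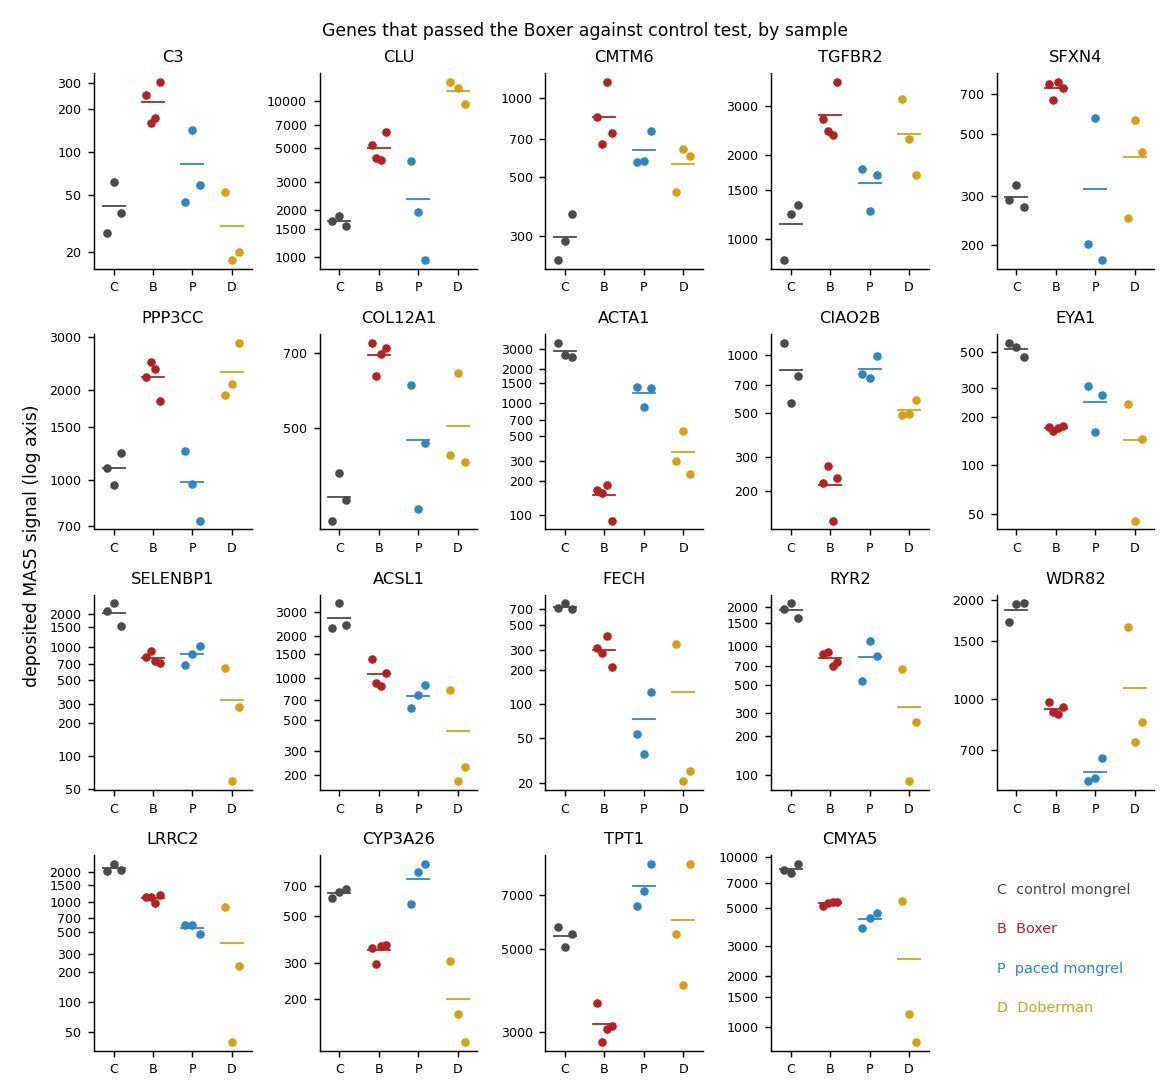
Deposited MAS5 signal (log axis) of each of the 19 named genes that passed the Boxer against control test, in the probe set that passed, for control mongrels (C), Boxers (B), paced mongrels (P) and Dobermans (D). Points are single arrays and bars are group means. CIAO2B and TPT1 are lower in the 4 Boxers than on any other array. RYR2, ACSL1 and SELENBP1 are low in the paced hearts and the Dobermans too.

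Of the lists with at least 5 tested genes, that of fibroblast markers had the highest median change. All 16 tested fibroblast markers had positive changes (2515 of 5281 over all genes), 13 of them with an unadjusted p under 0.05 (8.58% of all genes were higher at that level). Of the 16, 11 lay higher without overlap (7.88% of all genes). The list median was 0.74 on the log2 scale, and 0 passed the adjusted threshold in limma. The list's sample medians were 0.00, 0.27 and -0.29 in the controls and 0.76, 0.43, 0.66 and 1.10 in the Boxers. All Boxers lay above all controls in this summary, Boxer 4 highest. S100A4, a calcium-binding protein also known as fibroblast-specific protein, read 245, 559 and 237 in the controls and 1155, 867, 1250.4 and 2596 in the Boxers (log2 change 2.02 ± 0.38 (SE), adjusted p = 0.0646). MFAP4, a protein of elastic microfibrils, read 307, 392 and 222 and 861, 656, 564 and 972 (log2 change 1.27 ± 0.23 (SE), adjusted p = 0.0608). DKK3, a secreted protein of the dickkopf family, read 799, 1007 and 1065 and 3873, 1426, 3102 and 3707 (log2 change 1.56 ± 0.31 (SE), adjusted p = 0.0676). Boxer 2 was the lowest Boxer in S100A4 and DKK3, and still above every control. PDGFRL, a relative of the PDGF receptor, completed the 4 of smallest p (0.88 ± 0.16, adjusted p = 0.0603). The groups overlapped in the other 5 members, SERPINF1, DCN, FBLN1, VIM and CD34, which are named here after their values were seen.

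Among 51 tested extracellular matrix genes, 21 were higher and 2 lower at an unadjusted p under 0.05 (8.58% and 10.1% of all genes), 14 were higher without overlap (7.88% of all genes), and the median was 0.41. COL12A1, collagen XII, which sits on the surface of collagen fibrils, passed: it read 329, 407 and 361 in the controls and 734, 632, 698 and 716 in the Boxers (log2 change 0.90 ± 0.13 (SE), adjusted p = 0.0349). CILP, a matrix protein of cartilage and heart, read 191, 193 and 255 and 1072, 521, 1025 and 462, with Boxers 1 and 3 about alike and well above Boxers 2 and 4 (log2 change 1.69 ± 0.30 (SE), adjusted p = 0.0603). COL4A1, a basement membrane collagen, read 4135, 5521 and 4417 and 7327, 6973, 7199 and 6281 (log2 change 0.57 ± 0.12 (SE), adjusted p = 0.0736). In 2 fibrillar collagens the groups overlapped. COL1A1 read 494, 993 and 288 in the controls and 986, 784, 441 and 2576 in the Boxers (log2 change 0.87 ± 0.55 (SE), adjusted p = 0.441), and COL3A1 read 1056, 2049 and 625 and 1737, 1054, 1131 and 2982 (log2 change 0.50 ± 0.43 (SE), adjusted p = 0.575). Control P4 lay inside the Boxer range in both, and Boxer 4 alone exceeded every control in both. TGFBR2, a receptor of the profibrotic growth factor TGF-beta, rose 2.46-fold on 1 of its 2 probe sets, from 839, 1222 and 1319.8 to 2694, 2432, 2363 and 3644 (log2 change 1.30 ± 0.20 (SE), adjusted p = 0.0412), and the other probe set had a change of 0.81 (adjusted p = 0.0775). With the actin ratio as a covariate the changes of these probe sets were 0.43 and 0.32. IGFBP2, a binding protein of insulin-like growth factors, read 222, 28.2 and 44.4 in the controls and 591, 433, 436 and 623 in the Boxers (log2 change 2.62 ± 0.49 (SE), adjusted p = 0.0642), with control P1 well above the other 2 controls.

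In the complement system, CLU and 1 probe set of C3 rose. C3, the central component that all complement pathways cleave, rose 4.11-fold on 1 of 6 probe sets, from 26.8, 61.2 and 37.2 in the controls to 248, 158, 173 and 307 in the Boxers (log2 change 2.04 ± 0.30 (SE), adjusted p = 0.0349). The controls of this probe set lay under the signal filter of 89.2, so its fold depends on the pseudocount. It entered the test only through its Boxer values, and it was not tested in the fit of all 13 arrays. With the actin ratio as a covariate its log2 change was 1.21. All 6 had positive changes, from 0.69 to 2.04. The brightest C3 probe set read 454, 577 and 274 and 1039, 892, 732 and 1360.1, without overlap (log2 change 1.20 ± 0.27 (SE), adjusted p = 0.0754). CLU, clusterin, a secreted chaperone that inhibits the terminal complement complex, rose 2.9-fold, from 1681, 1809.8 and 1578 to 5228, 4293, 4174 and 6310.1 (log2 change 1.54 ± 0.15 (SE), adjusted p = 0.00501; 95% interval 1.20 to 1.88). Its groups were widely separated, and Boxer 4 was highest. Of 15 tested complement genes, CLU passed with its brightest probe set, and 12 had positive changes (2515 of 5281 over all genes). At an unadjusted p under 0.05, 7 were higher and 0 lower (8.58% and 10.1% of all genes). Without overlap 7 were higher (7.88% of all genes), and the median was 0.54. C1S and C1R, the proteases of the first complement component, read 1234, 1729 and 1073 and 366, 596 and 339 in the controls and 2577, 2682, 2016 and 3385 and 911, 854, 597 and 1302 in the Boxers. Their adjusted p values were 0.0704 and 0.11. C1S, C1R and C3 stood in the fibroblast list too, which made up 18.75% of that list and 20% of the complement list, so the counts of the 2 lists are not separate. The sample medians of the complement list ran from -0.03, 0.34 and -0.24 in the controls to 0.96, 0.56, 0.16 and 1.25 in the Boxers, and Boxer 3 lay below control P4.

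**Figure D4:**
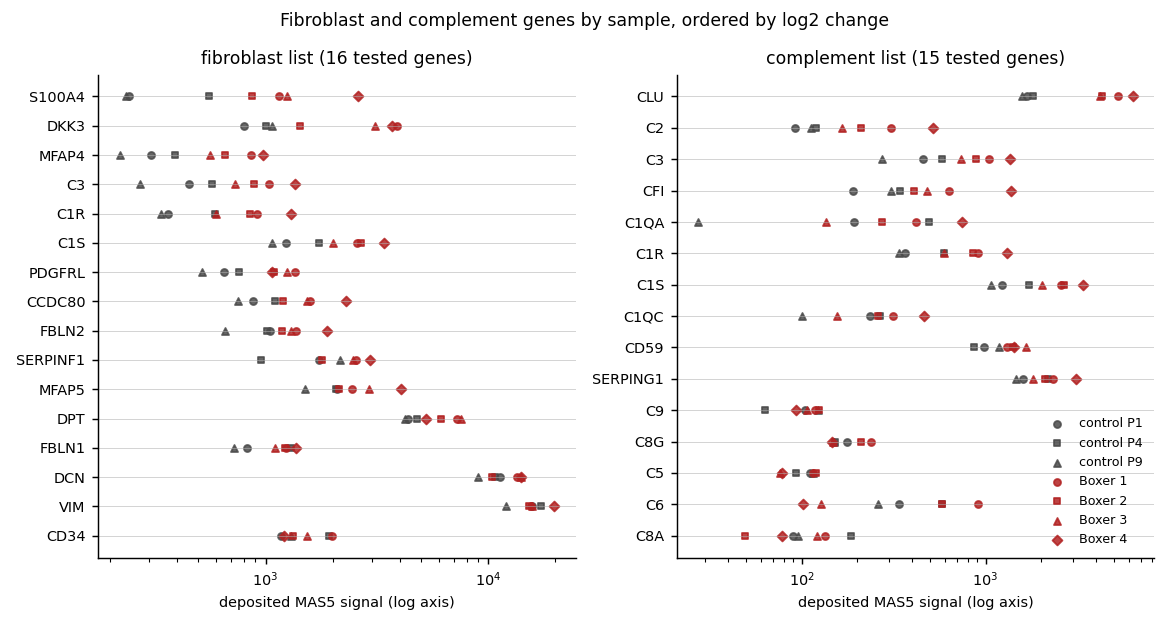
Deposited MAS5 signal (log axis) of the 16 tested fibroblast genes and the 15 tested complement genes on each control and Boxer array, with the brightest tested probe set of each gene and genes ordered by log2 change. Most genes at the top of each panel have every Boxer to the right of every control, and VIM and CD34 overlap.

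Macrophage and monocyte markers had positive changes in 21 of 23 genes (2515 of 5281 over all genes) and a median of 0.54, with 5 higher and 0 lower at an unadjusted p under 0.05 (8.58% and 10.1% of all genes) and 0 passing in limma. The sample medians were -0.01, 0.27 and -0.25 in the controls and 0.55, 0.27, 0.02 and 1.25 in the Boxers, so that Boxer 3 lay below control P4 and Boxer 2 was level with it. CTSB, the lysosomal protease cathepsin B, read 4571, 4027 and 4715 in the controls and 6533, 5411, 7238 and 6774 in the Boxers (log2 change 0.54 ± 0.12 (SE), adjusted p = 0.0807). CCL2, a chemokine that draws monocytes, read 258, 266 and 349 and 852, 523, 479.7 and 1219 (log2 change 1.26 ± 0.30 (SE), adjusted p = 0.0906). LYZ, lysozyme, and FCGR1A, an antibody receptor of macrophages, overlapped between groups (1.01 ± 0.32, adjusted p = 0.166 and 1.37 ± 0.45, adjusted p = 0.182). With the actin ratio as a covariate their changes were -0.25 and -0.38, of the opposite sign. SPP1, osteopontin, read 309, 58.7 and 513 and 1048, 664, 1133 and 5681, with no overlap and a wide spread in both groups (log2 change 2.66 ± 0.78 (SE), adjusted p = 0.146). Without Boxer 4 the macrophage median was 0.24. Of 9 interferon response genes, 3 were higher at an unadjusted p under 0.05 (8.58% of all genes) and 0 passed, with a median of 0.44. IFI30, CXCL10 and OAS2, an interferon-induced thiol reductase, a chemokine and an antiviral enzyme, were those 3, with adjusted p values of 0.214, 0.261 and 0.295. Here Boxer 4 was the lowest Boxer (0.61, 0.61, 0.30 and -0.12), unlike in the macrophage list.

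Detoxifying enzymes gave some of the larger differences short of the threshold. MGST1, a microsomal glutathione transferase, read 156, 87.1 and 51.9 in the controls and 475, 396, 279 and 562 in the Boxers (log2 change 2.02 ± 0.33 (SE), adjusted p = 0.0555). PTGR1, a prostaglandin reductase that also reduces reactive aldehydes, read 374, 396 and 423 and 1073, 600.5, 898 and 1349 (log2 change 1.21 ± 0.24 (SE), adjusted p = 0.0653). TXNRD2, the mitochondrial thioredoxin reductase, lay on the other side, at 659, 644 and 535 and 281, 409, 366 and 320.5 (log2 change -0.81 ± 0.16 (SE), adjusted p = 0.07). MT2A, a metallothionein that binds zinc and copper, read 532, 474 and 396 in the controls and 1251, 3192, 917 and 10734 in the Boxers, all above the controls and far apart among themselves (log2 change 2.40 ± 0.69 (SE), adjusted p = 0.141). Of its 3 tested probe sets, 2 had positive changes and 1 a negative one, at -0.71. Over the 32 oxidative stress genes the median was 0.05 (0.12 after median centring, -0.04 without Boxer 4), and 5 were higher and 1 lower at an unadjusted p under 0.05 (8.58% and 10.1% of all genes).

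Of the stress genes often followed in failing hearts, UCHL1, a ubiquitin hydrolase, read 803, 1220.5 and 2264 in the controls and 5442, 4479.5, 5022 and 2747 in the Boxers (log2 change 1.70 ± 0.33 (SE), adjusted p = 0.0653), and CDKN1A, the cell cycle inhibitor p21, 304, 398 and 916 and 1378, 1192, 1472 and 2569 (log2 change 1.68 ± 0.36 (SE), adjusted p = 0.0748). The change of CDKN1A was -0.012 with the actin ratio as a covariate, and it passed without control P9 (2.13, adjusted p = 0.0267). CORIN, the protease that activates natriuretic peptides, was lower, at 2541, 2666 and 2071 and 1248, 2013, 1178 and 1270 (log2 change -0.79 ± 0.19 (SE), adjusted p = 0.0957). ANKRD1, a stretch-responsive muscle protein, overlapped (7014, 8702 and 3781, against 4758, 5361, 5778 and 4294; log2 change -0.29 ± 0.25 (SE), adjusted p = 0.578). None of the 4 passed, and the list of 13 genes had a median of -0.18, which was 0.03 after quantile normalization.

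Among lists with at least 5 tested genes, the medians of those that mark other cell types were nearer 0 than that of the fibroblast list. They were -0.10 for 18 endothelial genes, 0.09 for 19 smooth muscle and pericyte genes, -0.20 for 11 lymphocyte genes, 0.11 for 14 adipocyte genes and -0.09 for 10 skeletal muscle genes, with 0 members passing in limma and 2, 4, 2, 3 and 2 at an unadjusted p under 0.05 (18.6% of all genes). FLT1, a receptor of vascular endothelial growth factor, was lower (-0.68 ± 0.20, adjusted p = 0.148), and CALD1, caldesmon of smooth muscle, higher (0.40 ± 0.11, adjusted p = 0.12), both without passing. ADIPOQ, adiponectin, which is made by fat cells, read 286, 187 and 12.9 in the controls and 488, 514, 279 and 247 in the Boxers, with control P9 at the bottom of the range (log2 change 1.65 ± 0.69 (SE), adjusted p = 0.266). Without P9 the log2 change of ADIPOQ was 0.62, and its other tested probe set had a change of -0.23. DGAT2, an enzyme of fat storage, was higher in every Boxer (1.23 ± 0.30, adjusted p = 0.0945). The adipocyte median of 0.11 became -0.09 without control P1. Leaving out 1 array gave lymphocyte medians from -0.25 to 0.0015. In the list of atrial genes, with a median of 0.22, NR2F1 and NR2F2, transcription factors that set atrial identity, read 70.6, 126 and 90.2 and 216, 203 and 154 in the controls and 256, 199.6, 198 and 262 and 353, 438, 289 and 420 in the Boxers (1.15 ± 0.22, adjusted p = 0.0653 and 0.91 ± 0.19, adjusted p = 0.0723). MYL4, the atrial light chain of myosin and the defining marker of that list, varied in both groups, at 521, 329 and 5163 and 1482, 442, 3054 and 9505, and the part of the heart sampled was not given. The other 16 lists with at least 5 tested genes had medians from -0.08 to 0.20. Cell type lists with fewer were red blood cell (4 genes, median -0.15), neutrophil and platelet (2 genes, 0.57) and mesothelial and epicardial (1 gene, 1.14).

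**Figure D5:**
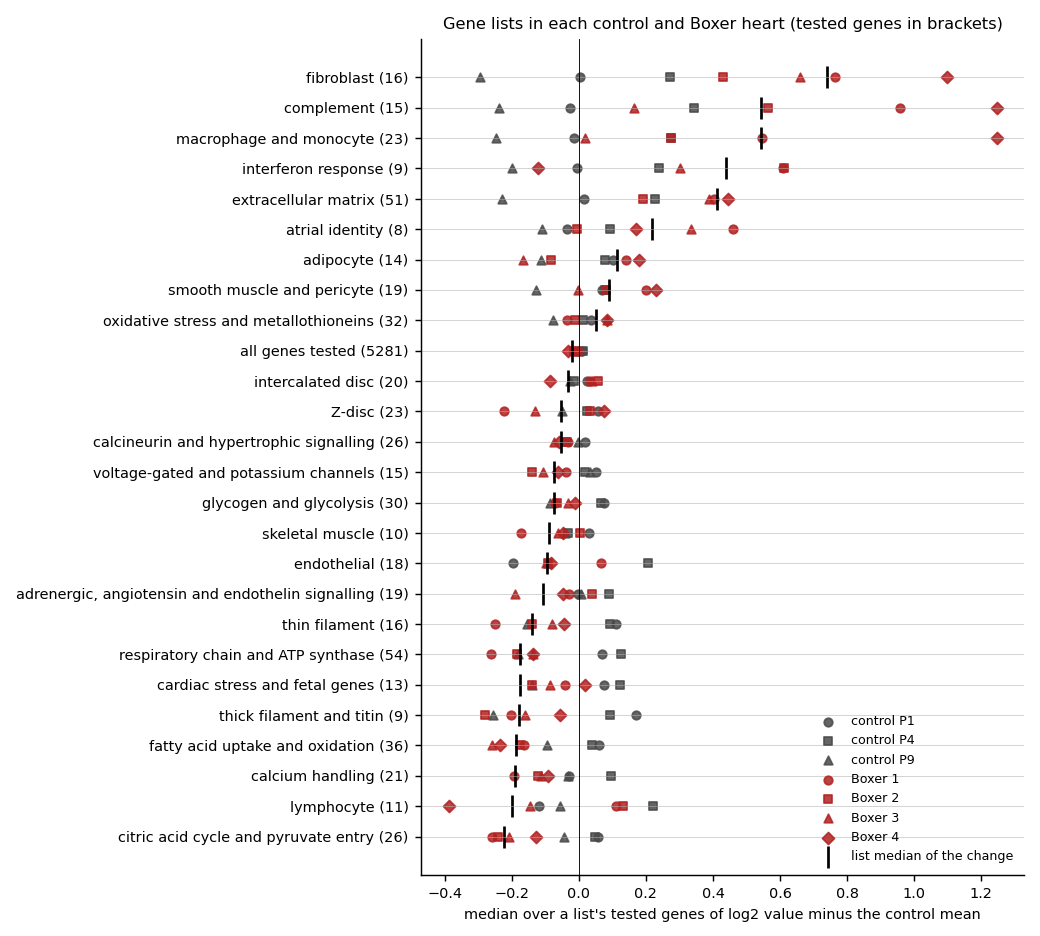
For each gene list (y axis, number of tested genes in brackets), the median over its genes of the log2 value minus the control mean on each control and Boxer array, with the median change marked by a bar. The fibroblast list has all 4 Boxers (0.43 to 1.10) above all 3 controls (-0.29 to 0.27), and in the respiratory chain list control P9 lies among the Boxers.

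The remaining named genes that passed belong to no list. EYA1, a transcriptional coactivator and phosphatase, fell 2.91-fold, from 573, 536 and 469 in the controls to 173, 163, 170.5 and 174 in the Boxers (log2 change -1.54 ± 0.14 (SE), adjusted p = 0.00459; 95% interval -1.86 to -1.22). WDR82, a part of complexes that methylate histone H3 at active promoters, fell from 1716, 1942 and 1955 to 977, 915, 897 and 945 (log2 change -0.99 ± 0.11 (SE), adjusted p = 0.00784). The 4 Boxers were within a narrow band in both. CMTM6, a membrane protein that stabilises the immune checkpoint ligand PD-L1, rose 2.72-fold, from 244, 287 and 365 to 846, 666, 1145 and 734 (log2 change 1.44 ± 0.21 (SE), adjusted p = 0.0338). TPT1, the translationally controlled tumour protein, fell from 5721, 5056 and 5495 to 3587, 2818, 3057 and 3105 on 1 of 8 probe sets (log2 change -0.79 ± 0.11 (SE), adjusted p = 0.0338), while the 8 changes ran from -0.79 to 0.39. CYP3A26, a dog cytochrome P450 of drug metabolism, fell from 609, 653 and 673 to 351, 297, 361 and 366 (log2 change -0.88 ± 0.13 (SE), adjusted p = 0.0435). CLU, TPT1 and FECH were read by probe sets that may match several transcripts, of the same or of other genes, as their array suffixes mark. Signal of related sequences cannot be told apart there. The suffix of the CLU probe set is also that of the brightest probe sets of ACTA1, ACTC1, MYH7 and ATP2A2, among others. Leaving out each array in turn, the calls of ACTA1, EYA1, CLU and SFXN4 held in all 7 fits, and the changes of all 19 genes kept their sign.

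The largest changes of all belonged to probe sets without a symbol. Probe set 1605157_at read 983, 792 and 669.9 in the controls and 6.5, 7.1, 12.3 and 13.6 in the Boxers, a log2 change of -5.00. It was also low in the Dobermans, at 7.3, 15.5 and 21.9, and intermediate in the paced hearts, at 97.9, 170.2 and 190.2. Probe set 1583573_s_at read 12, 9.1 and 38 in the controls and 1011, 1030.5, 568 and 273 in the Boxers, a log2 change of 4.28. It was high in the Dobermans, at 388, 950.3 and 476, and lower in the paced hearts, at 127, 44.1 and 33. Their adjusted p values were 2.94e-05 and 0.00724. One group of each probe set lay under the filter level, so the size of these changes depends on the pseudocount. Each entered the test only through its higher group, the controls for the first and the Boxers for the second. In both, the dogs of the 2 breeds lay on one side and the control mongrels on the other.

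The paced mongrels and the Dobermans show where the Boxer values stand among other diseased hearts. They were compared in limma on all 13 arrays, in which the Boxers differed from the paced hearts in 17.7% of probe sets (12.9% lower and 4.85% higher; 5239 probe sets in a fit of 10 arrays without the Dobermans, against 2536) and from the Dobermans in 35.4% (21.8% lower and 13.6% higher). The paced arrays had median signals of 208 to 219, above the Boxers and the controls, and the Doberman arrays correlated less with each other (0.793 to 0.845). Of the 30 probe sets that passed against the controls, 15 also differed from the paced hearts in the same direction and 1, FECH, in the opposite one. On the 10 arrays without the Dobermans 17 differed in the same direction. There WDR82, LRRC2 and CMYA5 differed in the opposite one, as FECH did (adjusted p = 0.00173, 3.15e-04, 0.0282 and 8.26e-04 in limma). WDR82 read 562, 573 and 660 in the paced hearts, below every Boxer. These comparisons share the Boxer arrays, so the counts are not independent of the choice of the 30. All 3 paced hearts lay on the Boxer side of the midpoint between the Boxer and control means for 10 of the 30, and on the control side for 11.

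RYR2, LRRC2, SELENBP1, CMYA5 and ACSL1 were lower in every Boxer, every paced heart and every Doberman than in any control. RYR2 read 531, 1081 and 834 in the paced hearts, around the Boxer range (log2 difference 0.03 ± 0.45 (SE), adjusted p = 0.974), and SELENBP1 read 678, 851 and 1015 (log2 difference -0.09 ± 0.50 (SE), adjusted p = 0.917). LRRC2 read 597, 597 and 478, below every Boxer, and the difference did not pass on all 13 arrays (log2 difference 0.97 ± 0.61 (SE), adjusted p = 0.287) but did so without the Dobermans (adjusted p = 3.15e-04). CMYA5 read 3805, 4351 and 4688, again below every Boxer, with the same change of call (log2 difference 0.31 ± 0.44 (SE), adjusted p = 0.661; 0.0282 as adjusted p on 10 arrays). In a second group CIAO2B, TPT1 and PPP3CC set the Boxers apart from the paced mongrels. CIAO2B read 801, 758 and 983 in the paced hearts (log2 difference -1.92 ± 0.25 (SE), adjusted p = 7.58e-04) and 490.1, 496 and 582 in the Dobermans (log2 difference -1.25 ± 0.25 (SE), adjusted p = 0.00562), all above every Boxer. TPT1 read 6516, 7142 and 8454 in the paced hearts and 5494, 4008 and 8444 in the Dobermans, and PPP3CC 1247, 968 and 731 and 1926, 2092 and 2876. PPP3CC was thus high in both breeds and not in the paced mongrels (log2 difference 1.18 ± 0.21 (SE), adjusted p = 0.00278). CLU was higher in the Dobermans (13149.8, 12089 and 9493) than in the Boxers (log2 difference -1.22 ± 0.35 (SE), adjusted p = 0.0197) and lower in the paced hearts (4108, 1926 and 951; log2 difference 1.32 ± 0.35 (SE), adjusted p = 0.0204). FECH was lower still in the paced hearts, at 54.5, 36.3 and 130.

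Some fibroblast genes were higher in the Boxers than in the paced hearts. The list's sample medians, relative to the controls, were -0.23, -0.24 and -0.14 in the paced hearts and 0.47, 0.18 and -0.34 in the Dobermans, against 0.76, 0.43, 0.66 and 1.10 in the Boxers. Of 16 genes, 5 were higher and 0 lower in the Boxers than in the paced hearts by the adjusted test, where 6.06% of all genes were higher and 7.22% lower, and the median log2 difference was 0.72 (0.07 over all genes). On the 10 arrays without the Dobermans 11 were higher and 0 lower, where 17.9% and 14.4% of all genes were. S100A4 was one of the 5 (411, 201 and 302 in the paced hearts; log2 difference 2.14 ± 0.38 (SE), adjusted p = 0.00288). Of 15 complement genes, 5 were higher and 0 lower than in the paced hearts (6.06% and 7.22% of all genes). On the 10 arrays without the Dobermans 6 were higher and 1 lower, where 17.9% and 14.4% of all genes were. MFAP4 overlapped, at 752, 494 and 958 in the paced hearts (log2 difference 0.07 ± 0.31 (SE), adjusted p = 0.898). Of 50 extracellular matrix genes, 0 were higher and 2 lower than in the paced hearts (6.06% and 7.22% of all genes). Of 22 macrophage genes, 1 was higher and 0 lower. On the 10 arrays these counts were 11 and 5 for matrix genes and 4 and 0 for macrophage genes (17.9% and 14.4% of all genes). Against the Dobermans, 4 of these 16 fibroblast genes and 2 of 15 complement genes differed in either direction, where 34.0% of all genes did. Of 26 citric acid cycle genes, 19 differed from the Dobermans, with a median log2 difference of 0.95, and 0 differed from the paced hearts, where 13.3% of all genes did. On the 10 arrays without the Dobermans 8 were higher and 2 lower than in the paced hearts, with SUCLA2 at an adjusted p of 0.00104 and PDK4 at 0.0454. The sample medians of that list were -0.26, -0.24, -0.21 and -0.13 in the Boxers, -0.54, -0.44 and -0.29 in the paced hearts and -0.63, -1.80 and -1.08 in the Dobermans. The paced and the Doberman hearts thus lay further below the controls in the citric acid cycle list. The GAPDH 3'/5' ratio reached 3.62 in the Dobermans, and its part in these differences was not tested.

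The Boxers were not uniform among themselves. The 15 genes that varied most among the 4 Boxers at a mean signal of at least 500 were picked after their values were seen, and 10 of them were highest in Boxer 4. In that heart FN1, fibronectin, read 11820 against 1968 to 2877 in the other Boxers and 1266 to 2255 in the controls. TIMP1, an inhibitor of matrix proteases, read 903, 649, 639 and 3514 in the Boxers and 402, 538 and 363 in the controls. CCL23, a chemokine, read 476, 308, 354 and 2910.4 and 144, 456 and 195. SPP1, at 5681, and MT2A, at 10734, were highest in Boxer 4 too, whereas the matrix genes CILP and COL4A1 and the chemokine gene CXCL10 were lowest in it. MYL1, a light chain of fast skeletal muscle myosin, read 330.3, 229.5, 199.8 and 1415 in the Boxers and 126, 124 and 154 in the controls. FBN2, fibrillin 2, and TTR, transthyretin, went the other way in Boxer 4, at 1374, 1579.8, 1888 and 139 and 1035, 822, 659 and 181. FOS, an immediate early transcription factor, read 1844, 338, 119 and 1249.7 in the Boxers, highest in Boxer 1 and lowest in Boxer 3. The median SD of a tested probe set was 0.22 log2 units among the Boxers and 0.23 among the controls.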

How the data were processed

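Each of 13 heart samples was hybridised to its own Affymetrix canine array, and the 4 Boxer and 3 control mongrel arrays were compared. The deposited values are signal intensities on a linear scale, made by the authors with MAS5, per the submitters' processing notes, which name no version. The 2% trimmed mean was close to 500.1 on every array when checked, so the arrays share a scale. Of the 23913 probe sets, 77 controls were set aside and 23836 kept.

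The analysis used log2(signal + 16). A filter at the 40th percentile of the mean over the 7 arrays (6.72, or 89.2 as signal) kept 14302 probe sets for limma 3.58.1 (R 4.3.3), with eBayes variances that follow an intensity trend. Probe sets with a Benjamini-Hochberg adjusted p under 0.05 passed. The comparisons with the paced mongrels and Dobermans used all 13 arrays. For the array measures the exact permutation test was two-sided, by doubling the smaller tail. The number of arrays limits the precision, and the fit had 5 residual degrees of freedom. The pipeline was tested on simulated data.

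The array annotation gave 10549 probe sets 1 symbol, 138 several and 13149 none. Of the identifiers, 10046 were found in the reference, and 0 symbols changed. A gene stands in the lists, and where no other probe set is mentioned, by its tested probe set of highest mean log2 value. This gave 5281 genes. The 45 gene lists with their member genes, and the alternatives, were chosen with earlier results of these data known. No list was tested. Genes were named by a rule: the 15 largest rises and falls that passed without overlap, those of smallest p up to 8 in a direction, up to 4 members of smallest p of each described list, and 29 fixed genes. Python 3.11.15 and matplotlib 3.10.9 drew the figures. Sequences and coordinates are not analysed here.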

Additional observations from a re-analysis of the deposited data

Results flagged for a closer look

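Among 128 reported genes and list medians, 1 Boxer stood far from the other 3 in 10, by the gap to its nearest neighbour over the range of the group. Chance puts about 1 group in 20 past the limit used. Boxer 2 was the high one for 3 muscle genes: CORIN read 2013 in Boxer 2 against 1178 to 1270 in the others, MYOM2 8447 in Boxer 2 against 5474 to 5752 in the others and PALLD 1074 in Boxer 2 against 735 to 769 in the others. Boxer 1 was high in SURF1 (889.7 in Boxer 1 against 706 to 712 in the others) and CXCL10 (488 in Boxer 1 against 268 to 290.4 in the others). Boxer 4 was high in TGFBR2 on its brightest probe set (4327 in Boxer 4 against 2518 to 2755 in the others) and in ATP2A2 (21720.5 in Boxer 4 against 18236 to 18447 in the others), and low in PPP3CB (1013 in Boxer 4 against 1348 to 1388 in the others). Of the list medians, that of endothelial genes was 0.065 in Boxer 1 against -0.097 to -0.082 in the others, and that of intercalated disc genes was -0.086 in Boxer 4 against 0.034 to 0.058.

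The Boxer and Doberman hearts, both labelled with dilated cardiomyopathy, differed by the limma test of the difference between them (adjusted p under 0.05) in 21 of the 41 probe sets named as passing, nearly passing or fixed, where 35.4% of all probe sets differed. Those named as passing or nearly passing were picked with the same Boxer arrays, so the count is not independent of their choice. The 14 higher in the Boxers, with log2 differences, were PPP3CB (2.36), CD36 (2.36), LRRC2 (2.27), ATP2A2 (2.10), GJA1 (2.01), FECH (1.94), SELENBP1 (1.72), ACSL1 (1.63), RYR2 on probe set 1582933_at (1.61), CMYA5 (1.59), MGST1 (1.40), CDH2 (1.05), RYR2 on probe set 1587427_at (0.88) and CYP3A26 (0.81). The 7 lower in the Boxers were FKBP1B (-3.23), CIAO2B (-1.25), CLU (-1.22), ACTA1 (-1.14), ANKRD1 (-1.12), TPT1 (-0.86) and MYH7 (-0.76). The Doberman arrays had GAPDH 3'/5' ratios of 1.08 to 3.62, against 0.968 to 1.09 in the Boxers, and the part of that ratio in these differences was not tested.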

How the results depend on the processing

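No paired analysis was possible because the labels give Boxers and controls no shared replicate numbers. The count of 30 was 38, 25, 25 and 42 after quantile normalization, median centring and with pseudocounts of 1 and 64, and 27 with no filter on signal. It was 136 (49 higher, 87 lower) with a filter at the 70th percentile, 130 (46 and 84) in a fit of 10 arrays without Dobermans, 61 (22 and 39) with array weights, 10 (3 and 7) without an intensity trend, 6 (2 and 4) in a fit of all 13 arrays and 0 (0 and 0) with the actin ratio as a covariate; counted by genes it was 11. Leaving out 1 array gave 12 to 221 probe sets, 3 to 103 higher and 6 to 118 lower, with 26 without Boxer 2 and 33 without Boxer 4. The cause of these changes was not tested. Called without each array were 6 of the 30, called under every setting were 0, and no change of a named gene that passed turned its sign. The fit of 10 arrays, added after the data were seen, gave 5239 in place of 2536 probe sets between Boxers and paced hearts.

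List medians moved beyond the spread among the samples as follows. After quantile normalization they were -0.14 for fatty acid, -0.050 for respiratory chain, -0.017 for glycolysis, 0.039 for thick filament, -0.023 for thin filament, 0.029 for cardiac stress and -0.015 for calcineurin genes. After median centring they were 0.12 for oxidative stress, -0.12 for fatty acid, -0.15 for citric acid cycle, -0.11 for respiratory chain, -0.0054 for glycolysis, -0.12 for calcium handling, 0.035 for intercalated disc, -0.0051 for channel, -0.11 for cardiac stress and 0.014 for calcineurin genes. With the mean over all probe sets of a gene they were 0.29 for matrix, -0.27 for thick filament, -0.11 for calcineurin and 0.20 for smooth muscle genes. Leaving out 1 array gave -0.090 to 0.14 for adipocyte, -0.10 to 0.000479 for adrenergic, -0.13 to -0.027 for calcineurin, -0.24 to -0.14 for calcium handling, -0.22 to -0.038 for cardiac stress, -0.30 to -0.16 for citric acid cycle, -0.11 to 0.013 for endothelial, 0.23 to 0.46 for matrix, -0.27 to -0.15 for fatty acid, -0.080 to -0.037 for glycolysis, -0.037 to 0.090 for oxidative stress, -0.27 to -0.11 for respiratory chain, -0.33 to -0.064 for thick filament and -0.21 to -0.036 for channel genes. Few arrays limit every call: the median SE of a tested probe set was 0.19 log2 units.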
